A study of Mus musculus with 32 samples.

Results

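Lungs of mice that had received World Trade Center dust and the antibiotic rosoxacin were set against lungs of unexposed mice. The exposed mice received WTCPM, particulate matter settled around Ground Zero, into the nose, and rosoxacin by intraperitoneal injection at 5 mg/kg. They are called rosoxacin mice below. The control mice are labelled as healthy, with neither dust nor drug. All animals were male C57BL/6J mice of 6 to 8 weeks. Each side held 4 mice, and every mouse was sequenced on 2 lanes, so that 16 of the 32 libraries of the study belong to this comparison. Further groups of 4 mice, with dust alone and with dust and dexamethasone (0.1 mg/kg), shared the estimate of the spread and are given where they place a value. No group received rosoxacin without dust, so a difference between rosoxacin mice and control mice covers dust and drug together. Not given in the sources used here are any vehicle in the other groups and the time between exposure and sampling.

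Genes entered the comparison when they carried an Ensembl identifier and averaged at least 0.1 FPKM over the 16 mice of the study, which held for 2749 of 26305. The filter used the same values that were then compared, so a gene at or near 0 in a group entered through the mice where it was higher. An FPKM value is a transcript's fragment count divided by its length and by the library's mapped fragments. These genes are the faint end of the data: all genes with an Ensembl identifier together held 0.114% of FPKM, the highest mean among them was 4.05 FPKM, and the rest lay in assembled loci without a gene name. Of the 2749 genes, 978 have a symbol that is not a predicted one, and 1771 are predicted genes, clones or have no symbol.

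Rosoxacin is a quinolone. Drugs of this class act on bacterial topoisomerases, the enzymes that relieve twist in DNA. In the lung, inhaled particles are met first by airway epithelium, with its mucus and lectins, and by resident phagocytes, which recruit neutrophils through chemokines. Acute-phase proteins such as serum amyloid A rise in injured lungs, and lymphocytes carry rearranged receptor genes whose variable (V) segments are read out as RNA. The labelled tissue could be checked only in small part. Of 24 alveolar epithelial and 31 macrophage and monocyte markers listed, 0 had a value under their own identifier, and among 33 mesenchymal and 27 B and plasma cell markers 0 reached 0.1 FPKM.

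The summed FPKM of the rosoxacin mice were 1329954, 924277, 1046644 and 963823, against 1099603, 765574, 776678 and 704683 in control mice. The difference of their means did not pass an exact permutation test (two-sided, p = 0.114, where 4 against 4 mice allow no less than 0.0286). Because the sums vary between mice, each result is given as deposited and after median-of-ratios scaling, whose size factors were 0.746 to 0.950 in rosoxacin mice and 0.931 to 1.08 in control mice. Read depth is unknown, because the files hold no counts. Control mouse 1 stood apart from the rest, with a score of 33.4 on the first principal component (18.3% of the variance of the tested genes). The rosoxacin mice scored between -18.4 and -13.0, and the other control mice between -1.86 and 3.34. On the second component (10.9%) rosoxacin mouse 1 stood apart as well, at 21.3, beside control mouse 1 at 20.8, while all other mice scored at most 9.82. Rosoxacin mice also carry the library numbers 1 to 4 in their labels, and control mice the numbers 7, 15, 21 and 23. Its meaning is not stated, and group and low number cannot be told apart. Nothing in the labels says whether mice of a group were housed or treated separately.

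Of the 2749 genes, 91 (3.31%) passed limma's test at an adjusted p under 0.05 on the deposited scale. They were 18 higher (0.655%) and 73 lower (2.66%) in rosoxacin mice than in control mice. After median-of-ratios scaling 44 (1.6%) passed, 24 higher (0.873%) and 20 lower (0.728%). Both scales shared 38 genes, 18 higher and 20 lower, while 53 lower genes passed on the deposited scale alone and 6 higher genes after scaling alone. The median log2 change of all tested genes was -0.11 as deposited and 0.05 after scaling, a shift that exceeds 0.1 on the log2 scale. At an unadjusted p under 0.05, 531 genes (19.3%) differed as deposited and 536 (19.5%) after scaling. In 59 genes (2.15%) all 4 rosoxacin mice lay above all 4 control mice, and in 248 (9.02%) below them, against 131 (4.77%) and 142 (5.17%) after scaling. Many calls were lost when 1 mouse was left out, which also leaves the test with fewer mice. As deposited the count was 42, 37, 11 and 32 without rosoxacin mouse 1, 2, 3 or 4, and 11, 74, 21 and 37 without control mouse 1, 2, 3 or 4. With the library number as a covariate 0 genes passed limma's test (281 at an unadjusted p under 0.05), and 0 passed with the covariate after scaling (235 at an unadjusted p under 0.05). All rosoxacin mice have lower numbers than every other mouse, so this fit can hardly separate group from number and decides nothing about the calls. In a separate fit with a pseudocount of 1, over 17355 loci and genes with at least 1 FPKM, 6443 (37.1%) passed as deposited, 932 higher and 5511 lower. After scaling 4415 (25.4%) passed, 2268 higher and 2147 lower.

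**Figure D1:**
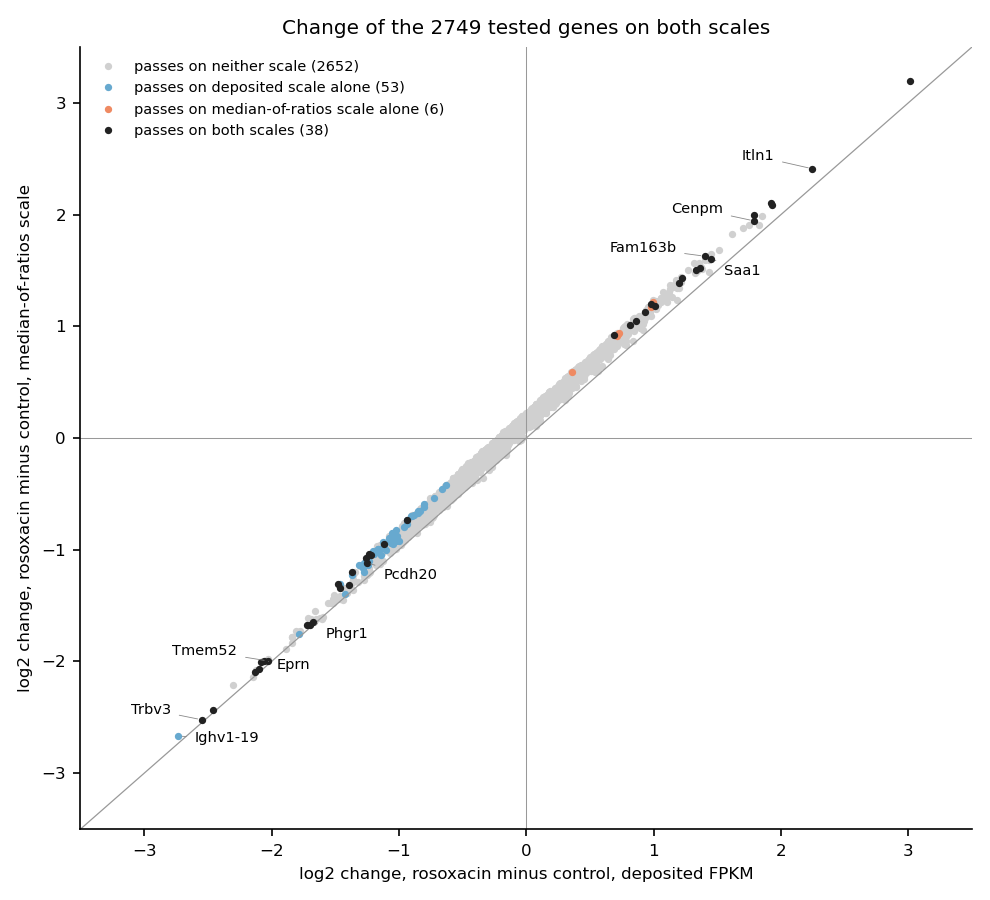
Log2 change of each of the 2749 tested genes, rosoxacin minus control mice, on deposited FPKM (x axis) and after median-of-ratios scaling (y axis). Nearly all points lie above the diagonal, and the 53 genes that passed as deposited alone all lie on the lower side.

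The risen genes were led by Itln1, intelectin-1, a secreted lectin that binds microbial glycans and is made by goblet cells and mesothelium. Itln1 (mm10, chromosome 1, 171518122 to 171535294, minus strand) had 0.331, 0.157, 0.525 and 0.633 FPKM in rosoxacin mice and was listed at 0 in all 4 control mice. It was also listed at 0 in 3 of the 4 mice with dust alone, the fourth having 0.0584 FPKM. With dust and dexamethasone it had 0, 0.273, 0.159 and 0 FPKM, so that 2 of these mice reached the lowest rosoxacin mouse. The fitted log2 change was 2.25 (SE 0.44, adjusted p = 0.0217), and 2.41 after scaling (adjusted p = 0.0127). Against a group at 0 its size depends on the pseudocount of 0.1, which holds for every gene below that is listed at 0 in a group. The call was lost without rosoxacin mouse 3, rosoxacin mouse 4 or control mouse 1, at adjusted p of up to 0.0629, and held after scaling whichever mouse was left out (at most 0.0478). Of 37 airway epithelial markers 6 were tested, with summed levels of 1.93 to 2.94 FPKM in rosoxacin mice and 1.15 to 2.50 FPKM in control mice. Itln1 was the only one of these 6 that passed. Fut2, a fucosyltransferase of airway and gut epithelium, had 0.926, 1.10, 1.01 and 1.20 FPKM in rosoxacin mice against 0.238, 0.602, 1.01 and 0.717 FPKM in control mice and did not pass (adjusted p = 0.139). Mesothelial genes gave 2 of 16 tested, Itln1 itself and Fgf9. The part of epithelial or mesothelial cells in the result was not tested, and in whole lung more cells of a type and more RNA per cell cannot be told apart.

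Saa1 (chromosome 7, 46740497 to 46742980, minus strand) encodes serum amyloid A1, an acute-phase protein that draws in phagocytes. It had 0.201, 0.299, 0.180 and 0.244 FPKM in rosoxacin mice and 0.0202, 0.00377, 0.0367 and 0.0208 FPKM in control mice. All 4 rosoxacin mice thus lay above all control mice. With dust alone Saa1 stood as high, at 0.318, 0.240, 0.200 and 0.386 FPKM. Means were 0.231 ± 0.0523 in rosoxacin mice and 0.0204 ± 0.0134 in control mice (SD, n = 4 each), a log2 change of 1.45 (SE 0.39, adjusted p = 0.0496) and of 1.60 after scaling (adjusted p = 0.0403). The call was lost on either scale whichever of the 8 mice was left out, at adjusted p of up to 0.110 as deposited and 0.102 after scaling. Of the 50-base windows of its transcripts 31.5% also occur in transcripts of another gene, so reads of a relative could be counted here. Socs1, an inhibitor of cytokine signalling, was the other tested member of the list of acute-phase and NF-kB genes, with a log2 change of -0.22 as deposited and -0.01 after scaling, and did not pass.

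Apold1 (chromosome 6, 134981718 to 134986836, plus strand), an early-response gene of vascular endothelium, had 1.58, 1.36, 1.07 and 1.17 FPKM in rosoxacin mice and 0.629, 0.710, 0.851 and 0.858 FPKM in control mice, without overlap. With dust alone its values were lower than in any rosoxacin mouse, at 0.438, 0.508, 0.783 and 0.683 FPKM. The log2 change against control was 0.69 (SE 0.18, adjusted p = 0.0496) and 0.92 after scaling (adjusted p = 0.0222), with the deposited call lost whichever mouse was left out (adjusted p up to 0.129). After scaling the call was lost without rosoxacin mouse 1, control mouse 1 or control mouse 2, at adjusted p of up to 0.0713. Prox1, a transcription factor of lymphatic endothelium, was the only other endothelial marker tested, of 37 listed. It had 0.473, 0.498, 0.366 and 0.364 FPKM in rosoxacin mice and 0.137, 0.311, 0.424 and 0.537 FPKM in control mice, which overlap, and did not pass (adjusted p = 0.577). Arc, the other immediate early gene tested besides Apold1, changed by 0.14 on the log2 scale and did not pass.

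Itln1, Saa1 and Apold1 are the risen genes whose products are best known in lung defence or vessels, and the 250 bases before their RefSeq start sites (GRCm38.p6) are shown for the sequence around these starts. The Apold1 window lies inside the annotated gene whose FPKM are given, since its RefSeq start is downstream of that gene's first base. Capitals mark 3 motifs searched on both strands, a kappa-B motif (GGG and CC with any 5 bases between them), a C/EBP motif written TTGCNNAA and the TATA motif TATAAA.
Itln1 chr1:171535295-171535544 (-): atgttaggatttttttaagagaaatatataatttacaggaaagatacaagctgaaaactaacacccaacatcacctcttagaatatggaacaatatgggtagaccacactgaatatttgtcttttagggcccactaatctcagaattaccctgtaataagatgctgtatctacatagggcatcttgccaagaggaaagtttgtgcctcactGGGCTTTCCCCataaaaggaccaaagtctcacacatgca
Saa1 chr7:46742981-46743230 (-): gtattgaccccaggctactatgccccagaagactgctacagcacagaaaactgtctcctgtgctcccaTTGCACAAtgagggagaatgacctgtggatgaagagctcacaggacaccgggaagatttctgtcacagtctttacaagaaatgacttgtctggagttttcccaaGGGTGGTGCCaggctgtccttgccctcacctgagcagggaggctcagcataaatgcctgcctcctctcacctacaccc
Apold1 chr6:134981751-134982000 (+): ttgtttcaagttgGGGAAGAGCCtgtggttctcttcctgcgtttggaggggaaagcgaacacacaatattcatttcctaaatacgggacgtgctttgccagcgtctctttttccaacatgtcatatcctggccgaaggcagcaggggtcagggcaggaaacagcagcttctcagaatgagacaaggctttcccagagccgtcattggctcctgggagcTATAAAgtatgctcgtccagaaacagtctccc
The kappa-B letters occurred in all 3 windows, from 39 bases before the start in Itln1 (matches on both strands that overlap), from 78 in Saa1 and from 237 in Apold1. Among all 32851 promoters of the same length 45.8% hold this motif. The C/EBP letters occurred 182 bases before the start of Saa1 (9.56% of all promoters), and the TATA letters 32 bases before that of Apold1 (12.4%). These matches describe the letters and show no binding.

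Cenpm (chromosome 15, 82233779 to 82244748), which encodes a centromere protein of dividing cells, had 0.519, 0.535, 0.224 and 0.463 FPKM in rosoxacin mice and 0.283, 0.0308, 0 and 0 FPKM in control mice. Control mouse 1 was the only control mouse that reached the lowest rosoxacin mouse. Cenpm had 0.183 to 0.428 FPKM with dust alone and 0.228 to 0.414 FPKM with dust and dexamethasone, and both groups overlapped the rosoxacin mice. The log2 change against control was 1.79 (SE 0.38, adjusted p = 0.0219), and 1.94 after scaling (adjusted p = 0.0184). Without control mouse 1 it was 2.24 (adjusted p = 0.00239), while the call was lost without rosoxacin mouse 1, 2 or 4 or control mouse 3 or 4 (adjusted p up to 0.0576). Cenpm was the only 1 of 8 tested cell division genes that passed on either scale. Their median log2 change was 0.40, against -0.11 for all tested genes, and 7 of 8 changes were above 0 (1142 of all 2749 tested genes). Among them was Prr11, whose log2 change was 0.47, while that of the mitotic kinase Ttk was -0.79. In the DNA repair list 0 of 3 tested genes passed, and all 3 had changes above 0. Among host topoisomerase genes 0 were tested, so the enzymes related to the bacterial targets of the drug have no value here.

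P4ha3 (chromosome 7, 100285520 to 100319699), a catalytic subunit of the prolyl 4-hydroxylase that modifies collagen, had 0.373, 0.574, 0.367 and 0.416 FPKM in rosoxacin mice and 0.0950, 0.210, 0.128 and 0.103 FPKM in control mice. The groups did not overlap, and the mice with dust alone, at 0.179 to 0.701 FPKM, overlapped both. The log2 change was 1.20 (SE 0.28, adjusted p = 0.0315) and 1.39 after scaling (adjusted p = 0.0152). P4ha3 was the only 1 of 13 tested collagen, matrix and protease genes that passed, and the median of the 13 was -0.09, or 0.08 after scaling. As deposited the call was lost whichever mouse other than control mouse 2 was left out, and after scaling it held whichever was left out (adjusted p at most 0.0478).

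Fam163b had 0.635, 1.20, 1.118 and 1.84 FPKM in rosoxacin mice and 0.193, 0.423, 0.435 and 0.461 FPKM in control mice, a log2 change of 1.40 (SE 0.33, adjusted p = 0.0315). Hipk4, a kinase of the homeodomain-interacting family, had 0.658, 0.721, 0.745 and 1.10 FPKM in rosoxacin mice against 0.204, 0.363, 0.476 and 0.411 FPKM in control mice (log2 change 0.98, adjusted p = 0.0414). Ankle1, an endonuclease with ankyrin repeats, had 0.417, 0.570, 0.373 and 0.456 FPKM in rosoxacin mice and 0.150, 0.175, 0.163 and 0.279 FPKM in control mice (log2 change 0.93, adjusted p = 0.0370). In all of these genes every rosoxacin mouse lay above every control mouse. Lhfpl4, a membrane protein of inhibitory synapses, was higher as well, with 0.330 ± 0.0941 FPKM in rosoxacin mice and 0.134 ± 0.0309 FPKM in control mice (log2 change 0.86, adjusted p = 0.0346). After scaling adjusted p was 0.0152 for Fam163b and Hipk4, 0.0154 for Ankle1 and 0.0262 for Lhfpl4. The scaled calls of Fam163b, Hipk4 and Ankle1 held whichever mouse was left out, at adjusted p of at most 0.0483, whereas Lhfpl4 reached 0.0785 there. As deposited each of the 4 calls was lost when any of 6 or more of the 8 mice was left out, at adjusted p of up to 0.115.

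A further 6 genes passed as higher only after scaling, of which 4 have a symbol that is not a predicted one. Mefv, which encodes pyrin, an inflammasome sensor of myeloid cells, had 0.426, 0.508, 0.634 and 0.467 FPKM in rosoxacin mice and 0.309, 0.169, 0.219 and 0.151 FPKM in control mice. Its log2 change was 1.17 after scaling (adjusted p = 0.0302) and 0.98 as deposited (adjusted p = 0.0538). Adgrg5, an adhesion G protein-coupled receptor of leukocytes, had 0.734 ± 0.0948 FPKM in rosoxacin mice and 0.407 ± 0.0675 FPKM in control mice (SD, n = 4 each), without overlap (log2 change after scaling 0.94, adjusted p = 0.0184). It was the only 1 of 47 tested receptors of this class, olfactory and taste receptors aside, that passed on either scale. Cldn8, a claudin of tight junctions, had 1.15 ± 0.0839 FPKM in rosoxacin mice and 0.871 ± 0.0701 FPKM in control mice (adjusted p = 0.0441 after scaling). A3galt2, a galactosyltransferase of glycolipids, had 0.542 ± 0.176 FPKM in rosoxacin mice and 0.286 ± 0.0801 FPKM in control mice (adjusted p = 0.0474 after scaling). The calls of Mefv, Cldn8 and A3galt2 were lost without any of 6 or more mice, and that of Adgrg5 without rosoxacin mouse 3 alone (adjusted p = 0.0522).

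**Figure D2:**
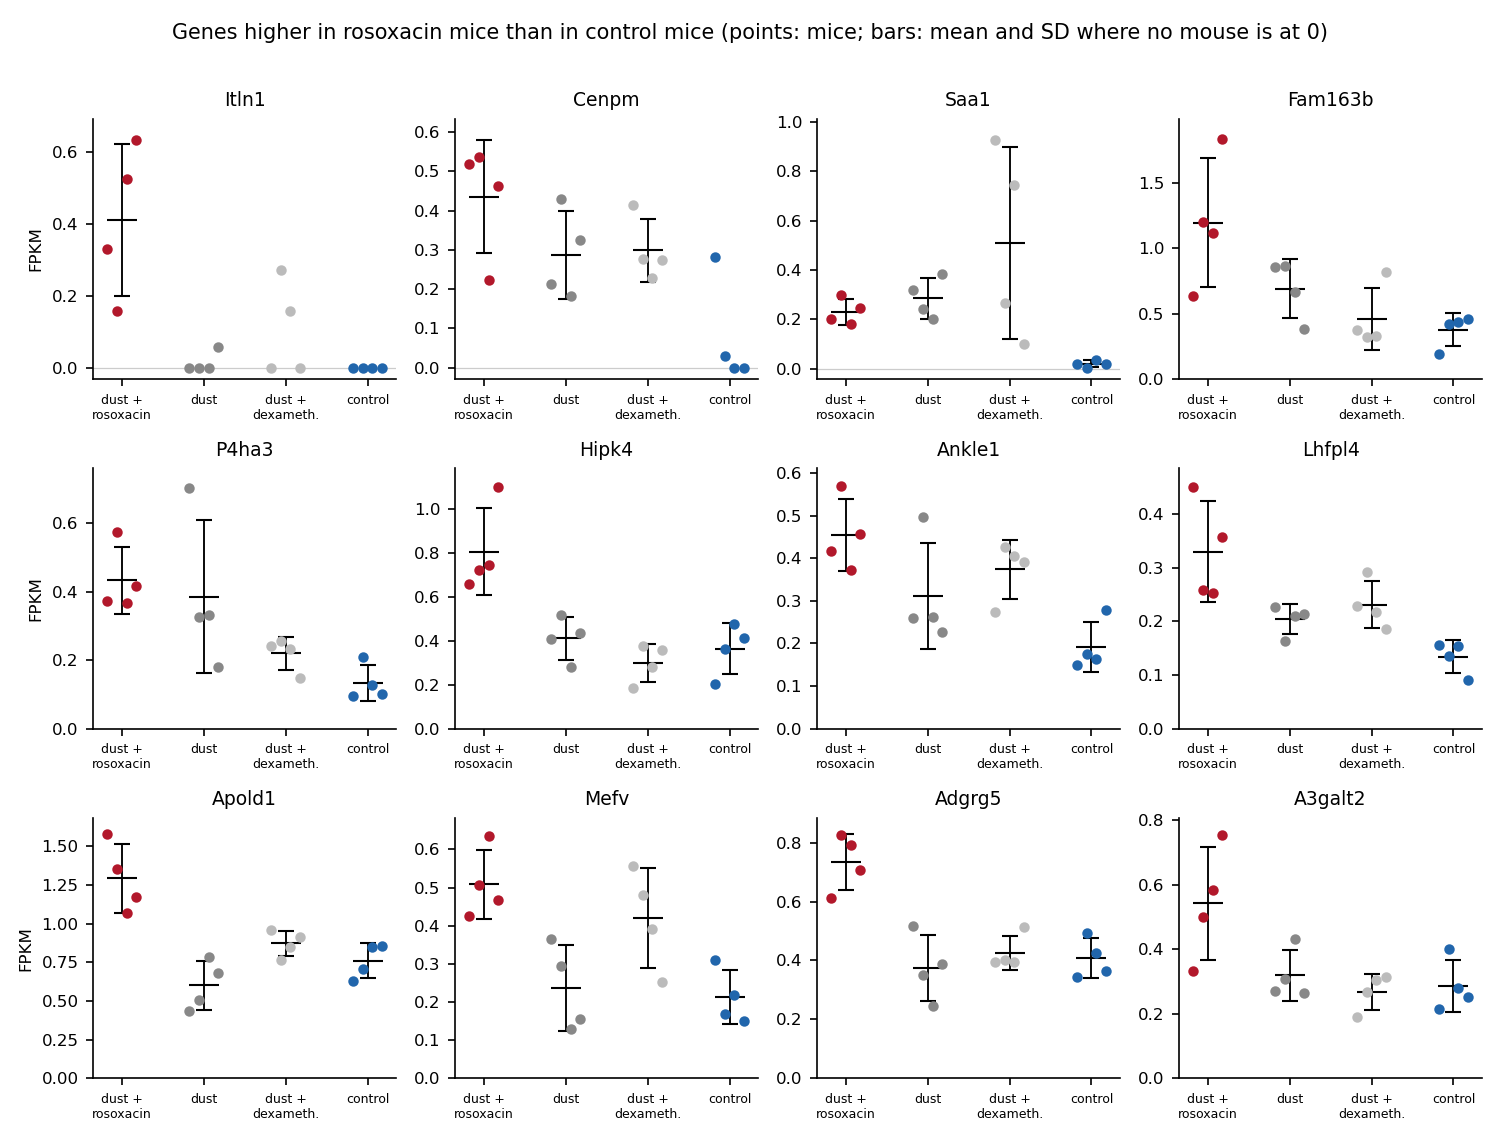
FPKM (y axis) of 12 genes that were higher in rosoxacin mice than in control mice on at least 1 scale, for single mice of the 4 groups (x axis); black bars give mean and SD, left out where a mouse is at 0. Itln1 is at 0 in all 4 control mice, Saa1 is as high with dust alone as with rosoxacin, and Apold1, Hipk4 and Adgrg5 are highest in the rosoxacin mice.

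The fallen genes included 4 named ones whose calls on the deposited scale held whichever mouse was left out. Eprn, a long noncoding RNA described in mouse embryonic stem cells (chromosome 13, 73344665 to 73347384), had 0.0372 FPKM in rosoxacin mouse 1 and was listed at 0 in the other 3, against 0.453, 0.304, 0.288 and 0.372 FPKM in control mice. Its log2 change was -2.06 (SE 0.27, adjusted p = 0.00167), and -1.99 after scaling (adjusted p = 0.00432). It passed in 31 of 34 settings tried. With dust alone Eprn had 0.410, 0.135, 0.383 and 0.450 FPKM and with dust and dexamethasone 0.490, 0.305, 0.509 and 0.420 FPKM, so the 4 rosoxacin mice lay below the other 12.

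Tmem52 (chromosome 4, 155469114 to 155470858), a membrane protein gene, was listed at 0 in all 4 rosoxacin mice, against 0.303, 0.401, 0.196 and 0.359 FPKM in control mice (log2 change -2.03, adjusted p = 0.00948). Phgr1 (chromosome 2, 118772769 to 118778165), which encodes a small protein of gut epithelium, was likewise listed at 0 in all rosoxacin mice, against 0.182, 0.239, 0.452 and 0.0958 FPKM in control mice (log2 change -1.67, adjusted p = 0.00979). Both were above 0 in every mouse with dust alone, from 0.101 to 0.459 FPKM for Tmem52 and from 0.257 to 0.491 FPKM for Phgr1. After scaling adjusted p was 0.00999 for both, and with 1 mouse left out it was at most 0.0332 for Tmem52 and 0.0386 for Phgr1 on either scale. Pcdh20 (chromosome 14, 88464743 to 88471396), a protocadherin of cell adhesion, had 0.0454, 0.160, 0.216 and 0.189 FPKM in rosoxacin mice and 0.387, 0.650, 0.501 and 0.408 FPKM in control mice. Its log2 change was -1.25 (SE 0.25, adjusted p = 0.0217) and adjusted p was 0.0262 after scaling, where the call was lost without rosoxacin mouse 1 or control mouse 1, 2 or 3 (up to 0.0607). With dust alone Pcdh20 had 0.452 to 0.719 FPKM. It was the only 1 of 3 tested cadherins that passed.

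In Tlr12, a Toll-like receptor that in mice senses a protein of Toxoplasma, rosoxacin mice had 0.453, 0.391, 0.445 and 0.591 FPKM and control mice 0.999, 1.01, 1.13 and 0.746 FPKM. The log2 change was -0.91 (SE 0.22, adjusted p = 0.0331), but -0.70 after scaling (adjusted p = 0.0996). Of 6 tested pattern recognition genes it was the only one that passed. Kbtbd13, a kelch-repeat protein of skeletal muscle, had 0.151, 0.138, 0.174 and 0.219 FPKM in rosoxacin mice against 0.552, 0.505, 0.450 and 0.364 FPKM in control mice (log2 change -1.07, adjusted p = 0.0219, and 0.0621 after scaling). Mesp2, a transcription factor of somite formation, had 0.452, 0.279, 0.325 and 0.172 FPKM in rosoxacin mice and 1.31, 0.784, 0.579 and 0.549 FPKM in control mice (log2 change -1.13, adjusted p = 0.0329, and 0.104 after scaling). Hs3st3a1, which sulfates heparan sulfate, had 0.310 ± 0.137 FPKM in rosoxacin mice and 0.592 ± 0.0895 FPKM in control mice, and rosoxacin mouse 2 overlapped the control mice (adjusted p = 0.0496, and 0.122 after scaling). Of its 50-base windows 42.8% occur in another gene, and it overlaps a gene on the opposite strand. These 4 genes therefore passed on the deposited scale alone, and each was lost there without any of 4 or more mice, at adjusted p of up to 0.128. Cd209b, Shisa2, Tceal3 and Pex5l passed as lower in the same way, at deposited adjusted p of 0.0389, 0.0484, 0.0286 and 0.0424, and are named after their values were seen.

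Cd164l2, Adtrp and Got1l1 were listed at 0 in all 4 rosoxacin mice. Control mice had 0.450, 0.230, 0.334 and 0.361 FPKM of Cd164l2, 0.358, 0.190, 0.381 and 0.0745 FPKM of Adtrp, a regulator of tissue factor pathway inhibitor, and 0.206, 0.116, 0.386 and 0.340 FPKM of Got1l1, a relative of aspartate aminotransferase. Log2 changes were -2.13 (adjusted p = 0.0219), -1.70 (adjusted p = 0.0219) and -1.79 (adjusted p = 0.0471), in that order, and Got1l1 did not pass after scaling (adjusted p = 0.0621). With dust alone Cd164l2 was at 0 in 2 mice, Got1l1 at 0 in 3 and Adtrp at 0.0618 to 0.213 FPKM, and none of these genes passed for dust alone against control (adjusted p = 0.356, 0.407 and 0.894). Without 1 mouse adjusted p reached 0.0755 for Cd164l2, 0.0824 for Adtrp and 0.116 for Got1l1. Cd164l2 and Adtrp overlap genes on the opposite strand, and whether counting used the strand is not stated. In all, 10 of the 2749 tested genes were listed at 0 in every rosoxacin mouse and above 0 in every control mouse, and 3 the other way round. Such genes reached the filter of 0.1 FPKM only through mice outside the group at 0, so these counts depend in part on the filter.

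**Figure D3:**
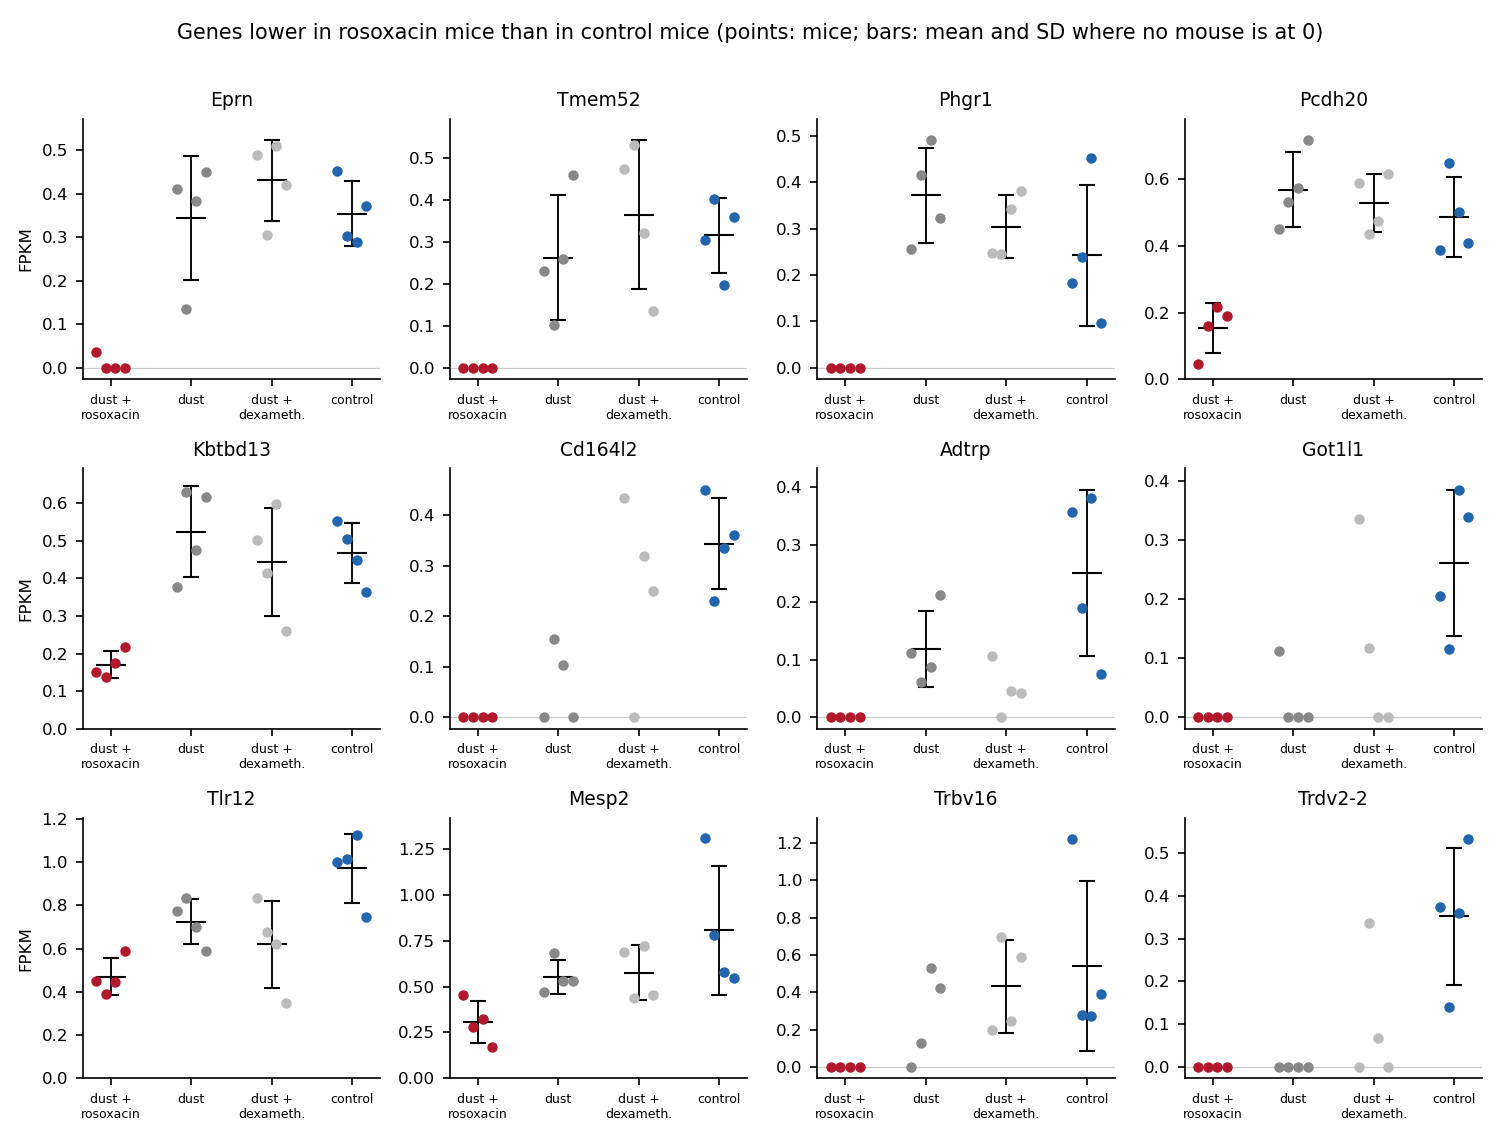
FPKM (y axis) of 12 genes that were lower in rosoxacin mice than in control mice as deposited, for single mice of the 4 groups (x axis); black bars give mean and SD, left out where a mouse is at 0. Eprn, Tmem52, Phgr1 and Pcdh20 are lower in the rosoxacin mice than in any other mouse, while Trdv2-2 is at 0 with dust alone too.

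Antigen receptor V segments had the lowest median changes of the gene types compared. The filter that admitted them averaged all 16 mice, among which control mouse 1 had the highest summed FPKM of both segment types. Of 17 tested T cell receptor V segments 4 passed as lower and 0 as higher on both scales, where 2.66% of all tested genes were lower as deposited and 0.728% after scaling, with a median log2 change of -0.97, against -0.11 for all tested genes. The 4 were Trbv3, Trbv16 and Trbv1 of the beta chain and Trdv2-2 of the delta chain. Trbv16 was listed at 0 in all rosoxacin mice, against 1.22, 0.278, 0.271 and 0.392 FPKM in control mice (log2 change -2.46, adjusted p = 0.0219). Trbv3 was at 0 in all rosoxacin mice too, against 1.31, 0.295, 0.188 and 0.630 FPKM in control mice (log2 change -2.55, adjusted p = 0.0312). Trbv1 had 0, 0.141, 0 and 0.229 FPKM in rosoxacin mice and 0.536, 0.694, 0.425 and 0.858 FPKM in control mice (log2 change -2.08, adjusted p = 0.0219). Trdv2-2 was listed at 0 in all rosoxacin mice and in all mice with dust alone, against 0.375, 0.141, 0.361 and 0.533 FPKM in control mice (log2 change -2.10, adjusted p = 0.0219). Of its 50-base windows 52.6% occur in transcripts of another gene. Without control mouse 1 none of the 4 passed, at adjusted p of 0.0772, 0.103, 0.0693 and 0.0755 for Trbv16, Trbv3, Trbv1 and Trdv2-2, and the class median was -0.865.

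Of 52 immunoglobulin V segments 1 passed, Ighv1-19, with 0, 0, 0 and 0.258 FPKM in rosoxacin mice and 2.16, 0.448, 0.526 and 0.805 FPKM in control mice. Its log2 change was -2.73 (SE 0.65, adjusted p = 0.0331), -2.67 after scaling (adjusted p = 0.0520) and -2.30 without control mouse 1 (adjusted p = 0.110). The class had a median log2 change of -1.14, with 3 of 52 changes above 0 (1142 of all 2749 tested genes). Segments high in control mouse 1 could enter the test through that mouse and would then tend to be lower in rosoxacin mice. With the same 52 segments but without control mouse 1 the median was -0.63 and 0 passed. Summed over the 52 segments, rosoxacin mice had 3.01, 4.91, 8.01 and 5.93 FPKM and control mice 63.7, 9.24, 8.14 and 15.97 FPKM. As deposited all rosoxacin mice lay below all control mice, and control mouse 1 was the farthest from the rest. After scaling the groups overlapped, at 4.04 to 8.83 in rosoxacin mice and 7.50 to 68.4 in control mice. With dust alone the sums were 7.14 to 12.7 FPKM. Summed T cell receptor V segments were 1.18, 2.82, 3.23 and 1.31 FPKM in rosoxacin mice and 9.31, 5.12, 3.34 and 5.86 FPKM in control mice, without overlap as deposited. After scaling these sums overlapped too, at 1.48 to 3.56 in rosoxacin mice and at 3.08 or more in control mice. Of the T, NK and innate lymphoid markers 8 of 42 were tested, and their summed levels overlapped, at 1.32 to 2.24 FPKM in rosoxacin mice and 1.49 to 2.24 FPKM in control mice. As deposited 3.31% of all tested genes passed limma's test and 19.3% had an unadjusted p under 0.05. Of these 8 markers 0 passed on either scale, and 0 had an unadjusted p under 0.05. Their median log2 change was -0.03, or 0.09 after scaling, with Icos, a costimulatory receptor, at 0.504 ± 0.174 FPKM in rosoxacin mice and 0.447 ± 0.0842 FPKM in control mice. In the median immunoglobulin V segment 31.3% of 50-base windows occur in another gene, against 2.7% over all tested genes. In the median T cell receptor V segment the share was 0.0%, and 10 of the 17 had no shared window. The part of B and T cell numbers in these values was not tested.

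**Figure D4:**
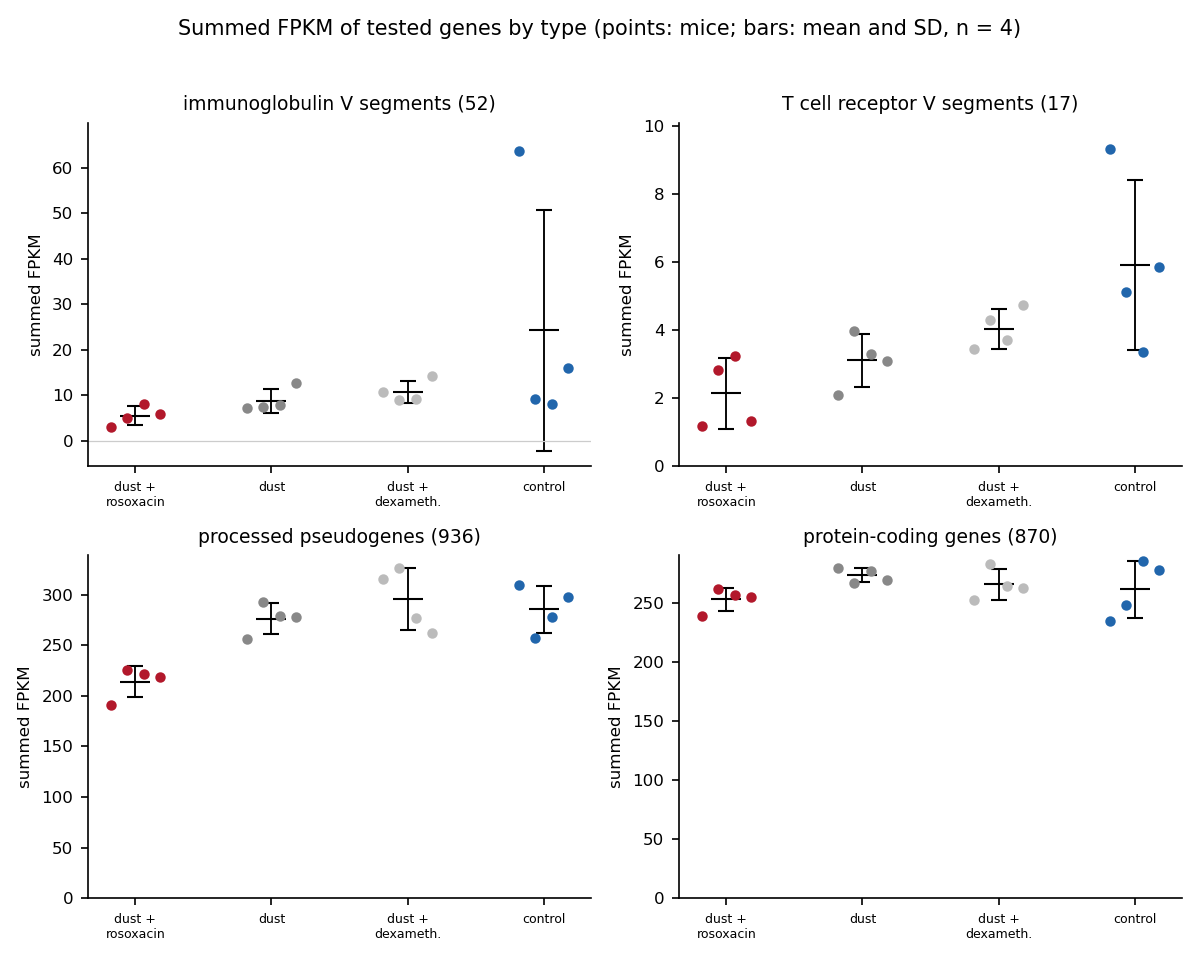
Summed FPKM (y axis) of the tested genes of 4 types for single mice of the 4 groups (x axis); black bars give mean and SD (n = 4). On this deposited scale the rosoxacin mice are lowest for processed pseudogenes, at 191 to 225 FPKM, and control mouse 1, at 63.7 FPKM, sets the control mean of immunoglobulin V segments.

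Processed pseudogenes, intronless copies of messenger RNAs, made up 52 of the 73 genes lower as deposited, 10 of the 20 lower after scaling and 936 of the 2749 tested. Their median log2 change was -0.34 as deposited and -0.19 after scaling, where 3 passed as higher. Without control mouse 1 they were 4 of the 9 lower genes and 0 of the 2 higher ones as deposited. Summed over all 936, rosoxacin mice had 191, 225, 221 and 219 FPKM and control mice 310, 257, 278 and 298 FPKM, without overlap as deposited, and mice with dust alone 256 to 293 FPKM. After scaling the groups overlapped, at 237 to 256 in rosoxacin mice and 247 to 333 in control mice. Of 27 named pseudogenes of ribosomal proteins 3 passed as lower (2.66% of all tested genes) and 0 as higher as deposited, and 0 passed after scaling. Among the 3 was Rpl31-ps1, with 0.168 ± 0.0737 FPKM in rosoxacin mice and 0.491 ± 0.0787 FPKM in control mice (adjusted p = 0.0219, and 0.0532 after scaling, named after its values were seen). Eif3s6-ps4, a copy of a translation initiation factor gene, had 0.0511 FPKM in rosoxacin mouse 3 and 0 in the others, against 0.278, 0.282, 0.101 and 0.172 FPKM in control mice (adjusted p = 0.0496, and 0.0745 after scaling). In the median processed pseudogene 13.4% of 50-base windows occur in another gene, against 0 in the median protein-coding gene, so reads of the parent genes could be counted here, which was not tested. The 870 protein-coding genes had a median change of -0.04 as deposited, with 10 higher and 14 lower, and of 0.11 after scaling, with 14 higher and 5 lower. Their sums overlapped as deposited, at 239 to 262 FPKM in rosoxacin mice and 235 to 285 FPKM in control mice. After scaling they did not, at 275 to 321 in rosoxacin mice and 238 to 263 in control mice.

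**Figure D5:**
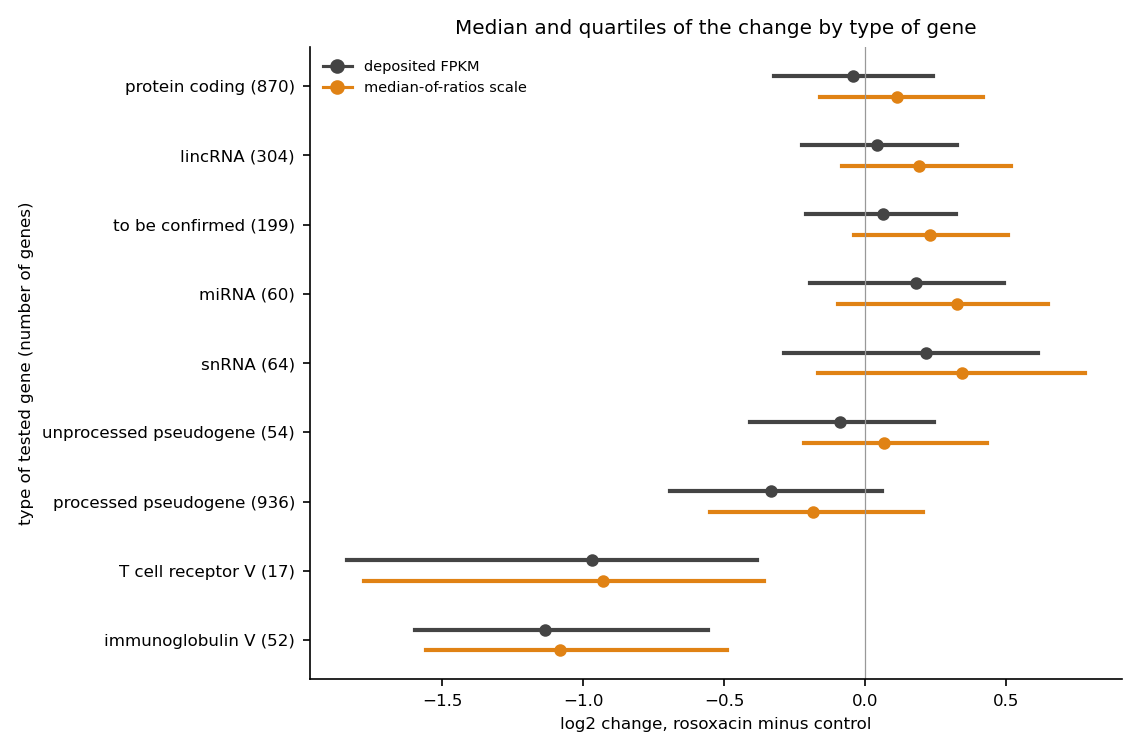
Log2 change, rosoxacin minus control mice (x axis), by type of tested gene (y axis, number of genes in brackets); points are medians and lines run between the quartiles, as deposited (grey) and after median-of-ratios scaling (orange). Immunoglobulin V (median -1.14 as deposited), T cell receptor V (-0.97) and processed pseudogenes (-0.34) lie lowest of the types drawn on both scales.

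Chemokines, cytokines and their receptors showed no passing gene on either scale in limma's test, and the 5 tested cytokine receptors had 0 at an unadjusted p under 0.05. Of 5 tested chemokines 0 passed and 2 had an unadjusted p under 0.05, which held for 19.3% of all tested genes. The median log2 change of the chemokines was 0.77, with 4 of 5 changes above 0 (1142 of all 2749 tested genes). Cxcl5, a neutrophil attractant, had 0.471, 0.400, 0.160 and 0.0800 FPKM in rosoxacin mice and 0.0567, 0, 0.129 and 0.0836 FPKM in control mice (adjusted p = 0.140). Cxcl1, another attractant of neutrophils, had 0.303 ± 0.119 FPKM in rosoxacin mice and 0.289 ± 0.168 FPKM in control mice. Among 6 tested cytokines 1 had an unadjusted p under 0.05, and the median change was 0.02. It was Il2, the T cell growth factor, which was listed at 0 in all rosoxacin mice, against 0.346, 0.334, 0 and 0.362 FPKM in control mice (adjusted p = 0.134). Osm, oncostatin M, had 0.284 ± 0.0899 FPKM in rosoxacin mice and 0.316 ± 0.136 FPKM in control mice. Of 6 chemokine receptors 1 had an unadjusted p under 0.05, and their median was 0.07. Cxcr2, the receptor through which neutrophils follow such attractants, had 1.37, 0.652, 0.737 and 0.651 FPKM in rosoxacin mice and 0.668, 0.366, 0.272 and 0.818 FPKM in control mice (adjusted p = 0.258). The 3 tested neutrophil markers of 29, Cxcr2, Cxcr1 and Asprv1, summed to 1.124 to 1.89 FPKM in rosoxacin mice and 0.814 to 1.27 FPKM in control mice. Defining neutrophil genes such as S100a8 are not among them. Il11, Cxcl5 and Il2 were named after their values were seen, Il11 having 0.177 ± 0.0726 FPKM in rosoxacin mice and 0.107 ± 0.0144 FPKM in control mice.

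The complement list, drawn by gene symbol, also took in genes named after C1q that are not complement components, such as C1qtnf4. Of its 4 tested genes 0 passed and 0 had an unadjusted p under 0.05, against 3.31% and 19.3% of all tested genes as deposited. Among the 4 was C3ar1, the receptor of fragment C3a, at 0.951 ± 0.0676 FPKM in rosoxacin mice and 0.866 ± 0.104 FPKM in control mice. Of interferon response genes 0 were tested. Of 22 dendritic cell markers the chemokine receptor gene Xcr1 was the only one tested and had 0.367 ± 0.0769 FPKM in rosoxacin mice and 0.405 ± 0.0364 FPKM in control mice. Genes of drug, oxidant and metal handling gave 0 of 4 passing and 1 at an unadjusted p under 0.05 (19.3% of all tested genes). Among them Cyp4a10, a fatty acid hydroxylase, had 0.183 ± 0.0622 FPKM in rosoxacin mice and 0.156 ± 0.0742 FPKM in control mice. Gdf15, the one p53 target tested, had 0.294 ± 0.178 FPKM in rosoxacin mice and 0.487 ± 0.360 FPKM in control mice. The adipocyte genes Lep and Hcar1 did not pass. Lep, leptin, had 0.311, 0.0636, 0.141 and 0.190 FPKM in rosoxacin mice and 0.978, 0.105, 0.289 and 0.381 FPKM in control mice (adjusted p = 0.331). Control mouse 1 had the highest value of both genes, with Hcar1 at 0.917 FPKM. Across 50 gene lists 43 had a tested member and 19 had at least 1 member that passed on either scale. Of all tested genes 3.31% passed as deposited and 1.6% after scaling. The lists differ in size and share genes, Itln1 being in the airway epithelial, mesothelial and lectin lists, so the 19 are not separate results.

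Of 24 solute carriers, 40 ion channels and 39 olfactory, vomeronasal and taste receptors 0 passed on either scale in limma's test. As deposited 3.31% of all tested genes passed. At an unadjusted p under 0.05 these lists had 3, 4 and 2 genes, in that order (19.3% of all tested genes). Median changes of the lists were -0.09, -0.04 and -0.04 as deposited (all genes -0.11), and 0.08, 0.10 and 0.10 after scaling (all genes 0.05). Among 18 homeobox, forkhead, SOX, T-box, GATA and basic helix-loop-helix transcription factor genes 1 passed as lower and 0 as higher. The lower gene was Mesp2, of the basic helix-loop-helix family. In 4 of the 18 all rosoxacin mice lay below all control mice as deposited (9.02% of all tested genes) and in 1 after scaling (5.17%). One of the 4 was Msx1, with 0.299, 0.462, 0.221 and 0.305 FPKM in rosoxacin mice against 1.05, 0.659, 0.627 and 0.520 FPKM in control mice (adjusted p = 0.0605, named after its values were seen). Of 15 zinc finger genes 0 passed and 8 had an unadjusted p under 0.05 (19.3% of all tested genes). As deposited 4 lay wholly below control (9.02% of all), and after scaling 1 (5.17%). Zbtb3 was among the 4 and overlapped after scaling, with 0.674 ± 0.166 FPKM in rosoxacin mice and 1.01 ± 0.191 FPKM in control mice (adjusted p = 0.153, and 0.422 after scaling). Of 20 secreted growth factors 0 passed and 5 had an unadjusted p under 0.05 (again 19.3% of all tested genes). Gdf11, a growth factor of the TGF-beta family, had 0.669 ± 0.0698 FPKM in rosoxacin mice and 0.645 ± 0.155 FPKM in control mice.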

How the data were processed

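The authors deposited FPKM per transcript, and per the labels' protocols the lung total RNA was read on an Illumina HiSeq. The submitters' processing notes name FastQC, HISAT, HISAT2 2.2.1, SAMtools 1.12, StringTie 2.1.5, R 4.0.4 and the build mm10. Not given in the sources used here are settings, annotation and strandedness. The 32 single-library files held the values of the series table.

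The 2 lanes of a mouse were averaged and transcripts summed per gene identifier. Symbols and types came from GENCODE M21, with 24950 of 26305 identifiers matched including version. Limma 3.58.1 (R 4.3.3; lmFit, eBayes with trend) was fitted to log2(FPKM + 0.1) of 16 mice in 4 groups, with Benjamini-Hochberg adjustment over 2749 genes and a threshold of 0.05. Loci were fitted on log2(FPKM + 1). Log2 changes are on these scales and understate changes of low genes. Size factors used 17233 features. Scripts were tested on simulated data. Figures used matplotlib 3.10.9 in Python 3.11.15.

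Members, lists and tests were chosen with earlier results of these data known. Named were the 12 risen and 12 fallen genes of largest change among those passing without overlap, 5 each passing only after scaling, and up to 4 passing members of each list or else its 2 highest. Predicted genes were counted. Outside this rule, and chosen after their values were seen, were Fut2, Fgf9, Prox1, Arc, Socs1, Prr11, Ttk, Asprv1, Cxcl5, Il2, Il11, Msx1, Rpl31-ps1, Ucn2, Cd209b, Shisa2, Tceal3 and Pex5l. P-values measure the spread between these mice. Alternatives were other scalings, pseudocounts, filters, single lanes, a covariate, a replicate block and each mouse left out.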

Additional observations from a re-analysis of the deposited data

Results flagged for a closer look

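In 148 sets of 4 mice, covering the named genes and the sums by type in rosoxacin mice and in control mice, 12 had a highest or lowest mouse farther from its neighbour, relative to the whole range, than Dixon's critical value for 4 samples. For normally distributed values chance alone flags about 1 in 20 such sets, and FPKM near 0 need not follow that rate. Where all other mice of a group are at 0, any value above 0 is flagged. This was so for Eprn, Ighv1-19 and Eif3s6-ps4 in rosoxacin mice. The causes were not tested.

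Among rosoxacin mice, mouse 1 stood apart with Cxcr2, the neutrophil chemokine receptor, at 1.374 FPKM, the other 3 having 0.651 to 0.737 FPKM. The same mouse had the one value above 0 of Eprn, 0.03717 FPKM. Mouse 4 was low for Tnfsf14, a cytokine of lymphocytes, at 0.2884 FPKM (others 0.508 to 0.538 FPKM), and low for the zinc transporter Slc30a2 at 0.1293 FPKM (others 0.177 to 0.184 FPKM). It also had the one value above 0 of Ighv1-19, 0.258 FPKM, and mouse 3 that of Eif3s6-ps4, 0.05111 FPKM.

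Among control mice, mouse 1 was flagged for 5 of 6 values. Its immunoglobulin V segments summed to 63.69 FPKM (others 8.14 to 16.0 FPKM), and the T cell receptor segment Trbv16 had 1.219 FPKM (others 0.271 to 0.392 FPKM). Cenpm was at 0.2831 FPKM there (others 0 to 0.0308 FPKM). Fam163b, at 0.1928 FPKM (others 0.423 to 0.461 FPKM), and the zinc finger gene Zfp967, at 1.434 FPKM (others 4.48 to 5.08 FPKM), were low in that mouse. Zfp967 was lowest in mouse 1 of each other group too. It had 1.77 FPKM in rosoxacin mouse 1 (others 3.37 to 4.03 FPKM) and 1.64 FPKM with dust and dexamethasone (others 5.07 to 5.22 FPKM). With dust alone the gap was small, at 4.47 FPKM (others 4.56 to 5.12 FPKM). Control mouse 4 was high for the DNA polymerase gene Polq, at 0.5429 FPKM (others 0.187 to 0.225 FPKM).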

How the results depend on the processing

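The 91 genes that passed in rosoxacin against control mice as deposited became 44 after median-of-ratios scaling, 260 after rescaling to TPM (7 higher, 253 lower), 40 after quantile normalisation (18 higher, 22 lower), 21 with a pseudocount of 1, 7 with no filter on low values, 203 when adjusted together with the loci, 24 with the 2 groups alone, 7 from lane 1 and 16 from lane 2. With the library number as a covariate 0 passed, also after scaling, in a fit that can hardly separate group from number. Leaving out 1 mouse gave 11 to 74 genes as deposited and 20 to 42 after scaling. Added after the data were seen, leaving out rosoxacin mouse 1 and control mouse 1 together gave 14, and leaving out genes that overlap another gene gave 76. A replicate block gave 85 genes (44 after scaling), of which 66 were among the 91. Deviations of same-numbered mice correlated at -0.037 to 0.111, so the numbers were not taken as pairs. Calls held without each mouse in 8 genes as deposited and in 16 after scaling, 7 of them on both. The causes of these shifts were not tested. Of 71 named genes, 30 passed on either scale and none of these changed direction in any setting tried, while 30 of the other 41 changed sign in at least 1. The difference in summed FPKM kept its direction and passed the permutation test in none of the settings tried. Without control mouse 1 the groups did not overlap, at 924277 or more in rosoxacin mice and 776678 or less in control mice. Even this full separation did not pass, because so few mice allow few regroupings, so the test shows no absence of a difference. The count of loci stayed within 1.5 times, but its split was 932 higher and 5511 lower as deposited and 2268 higher and 2147 lower after scaling. Depth is unknown, so the levels at which a gene is listed at 0 carry no detection limit.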

Other observations

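Of 60 tested genes annotated as miRNA 0 passed limma's test on either scale and 7 had an unadjusted p under 0.05 (19.3% of all tested genes). Their median log2 change was 0.18, against -0.11 over all tested genes, and 40 of 60 changes were above 0 (1142 of all 2749). Mir146, the gene of a microRNA induced by inflammatory signals, had 0.286, 0.525, 0.140 and 0.870 FPKM in rosoxacin mice and 0.405, 0, 0.703 and 0 FPKM in control mice, which overlap (adjusted p = 0.438). These values come from total RNA and do not show mature microRNAs. The 64 genes annotated as snRNA had a median change of 0.22. Summed snRNA genes gave 14.7, 13.7, 13.9 and 20.9 FPKM in rosoxacin mice and 13.96, 8.20, 9.40 and 15.8 FPKM in control mice, with overlap. In the median gene annotated as miRNA all 50-base windows (100%) occur in transcripts of another gene.

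Single mice differed for a few genes that passed no test. Ddit4l, a stress-induced inhibitor of mTOR signalling, had 1.5, 0.834, 0.335 and 0.392 FPKM in rosoxacin mice, with mouse 1 the highest, and 0.453, 0.311, 0.545 and 0.561 FPKM in control mice. Ucn2, a peptide of the urocortin family, had 0.376, 0.176, 0.278 and 0.379 FPKM in rosoxacin mice against 0, 0.124, 0.124 and 0.180 FPKM in control mice and did not pass (adjusted p = 0.100, named after its values were seen).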
